A study of Mus musculus with 12 samples.

Results

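The genes described here are 30 genes of the antioxidant programme that is controlled by the transcription factor NRF2, together with the thioredoxin, glutathione, NADPH and iron enzymes that work with it. They were chosen by name, with earlier results of these data known. The shares of these genes given below beside those of all clusters are thus a description and not an independent test. Each gene was read through the transcript cluster whose only gene symbol in the platform annotation is that gene. Where a gene has several, the cluster with the highest mean log2 signal was taken. A cluster was found for 28 of the 30 genes, among 28939 transcript clusters tested. *G6pdx* and *Prdx6* were not analysed here. By role there were 8 measured genes of glutathione, 5 of thioredoxin and peroxide removal, 4 of NADPH supply, 4 of iron and haem, 2 quinone and carbonyl reductases, and 5 regulators.

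NRF2, encoded by *Nfe2l2*, is held at a low protein level by KEAP1, which directs it to degradation. Oxidants and electrophiles that modify KEAP1 let NRF2 accumulate, pair with a small MAF protein and bind antioxidant response elements near its target genes. Their products make and recycle glutathione and thioredoxin, supply the NADPH that both systems use, and handle haem and iron. Neutrophils make large amounts of superoxide through the NADPH oxidase when they meet immune complexes, so that they both consume NADPH and are exposed to the oxidants they release.

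Bone marrow neutrophils, labelled as Ly6G+ cells, came from wild-type C57BL/6 mice and from *Card9*-/- mice of the same background, which are homozygous for the *Card9*tm1Jrld allele in all of their cells and not in neutrophils alone. CARD9 is an adaptor that couples immune receptors to NF-κB signalling. The cells spent 4 h on human serum albumin alone (control surface) or on albumin covered with anti-albumin IgG (immobilized immune complexes, IC), and adherent and nonadherent cells were lysed together. Each genotype on each surface made a group, and the 4 groups were each measured once in 3 experiments, which gave 12 Affymetrix mouse gene arrays from 150 ng of RNA each. The study used mice of both sexes that were a few months old. How many mice stand behind a sample is not stated, so that the spread between the 3 experiments may hold technical as well as biological differences.

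The values were used as deposited, as log2 signals, on which a difference of 1 is a doubling. The *Card9* cluster checked the labels, with signals of 8.08 to 8.75 on the 6 wild-type arrays and 5.56 to 6.42 on the 6 *Card9*-/- arrays. The array medians spanned 5.70 to 5.76, 5.86 to 5.93 and 5.27 to 5.39 in experiments 1 to 3. All 12 neutrophil markers were measured, and the mean signal of this list was 12.13 to 12.43 over the arrays. The mean of 10 of 11 B cell markers, in contrast, ranged from 5.39 to 8.56, and was 5.39 to 5.44 in experiment 2, 6.37 to 7.52 in experiment 1 and 7.46 to 8.56 in experiment 3. The highest signal of any cluster on any array was 13.78. There is no read depth on an array, and precision is limited by having 3 arrays in a group.

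First, the response of wild-type cells to IC was examined. The mean signal was higher on IC than on the control surface for 23 of the 28 genes (59.7% of all clusters) and lower for 5 (40.3%), with a median difference of 0.28 against 0.04 over all clusters. In the limma test 0 of the 28 passed the adjusted threshold, as did 0% of all clusters. At an unadjusted p under 0.05, 7 of the 28 (25%) were higher, against 5.18% of all clusters, and 0 were lower, against 4.41% (9.59% in either direction). After centring each array on its median, 6 were higher (2.51%) and 0 lower (6.69%). The 7 were *Ggct*, *Gss*, *Srxn1*, *Txnrd1*, *Prdx1*, *Blvrb* and *Me1*, and thus came mainly from the glutathione and thioredoxin branches. The iron branch was represented by *Blvrb* alone and the NADPH branch by *Me1* alone. When only clusters above the median signal were kept, 5 were higher (3.87%) and 0 lower (7.59%), and *Txnrd1* and *Me1* were not among them. In a population of cells, a change in the number of cells of a type and a change in the RNA per cell cannot be told apart.

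The response differed widely between the experiments. For the 28 genes the median difference was 0.50, 0.36 and −0.14 in experiments 1, 2 and 3. The difference exceeded 1 for 11 genes in experiment 1 (0.684% of all clusters), for 2 in experiment 2 (0.297%) and for 0 in experiment 3 (0.619%). In experiment 3 it was below 0 for 20 of the 28, against 39.5% of all clusters. Accordingly, 6 of the 28 (21.4%) were higher in all 3 experiments, against 18.8% of all clusters, which is close to the background. Leaving out experiment 1 lowered the median of the 28 genes to 0.11, and leaving out experiment 3 raised it to 0.42. When experiment 1 was omitted, the 7 genes at an unadjusted p under 0.05 became 1 (*Ggct*, 3.4% of all clusters), and without experiment 2 they became 4 (3.45%). Without experiment 3 they became 16, of which 15 were higher (5.68% of all clusters) and 1, *Tkt*, was lower (3.38%). The arrays of experiment 3 also stood apart in the rows whose identifiers lie below the annotated range, which were left out of the tests. Their median signal in wild-type control and IC was 5.75 and 5.73, 6.01 and 6.08, and 5.01 and 4.66 in experiments 1, 2 and 3. Their median difference between IC and control was −0.01, 0.06 and −0.2 in wild-type cells and 0.02, −0.01 and 0.05 in *Card9*-/- cells. The part of array quality in these responses was not tested.

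**Figure D1:**
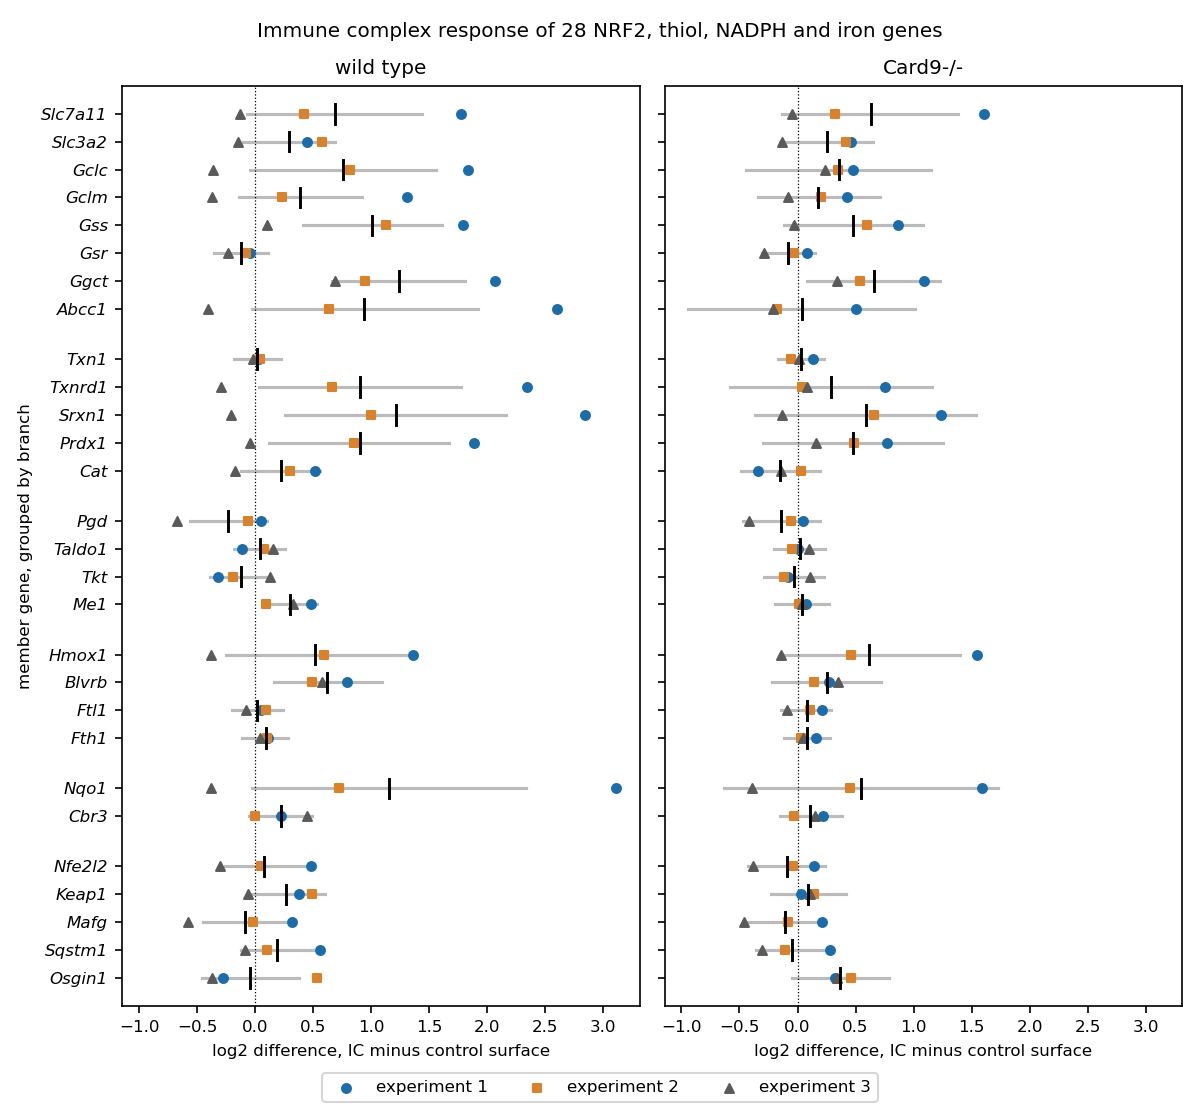
Difference in log2 signal between the IC and the control surface (horizontal axis) for the 28 genes (rows, grouped by branch) in wild-type (left) and Card9-/- cells (right). Symbols are the 3 experiments, black bars their mean and grey lines the 95% confidence interval of the limma fit; the wild-type values of experiment 1 reach 3.11 for Nqo1, while most of those of experiment 3 lie at or left of 0.

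The glutathione branch had the second highest of the branch medians, 0.72 (1.78, 0.61 and −0.19 in experiments 1, 2 and 3). *Ggct* encodes γ-glutamylcyclotransferase, which breaks down γ-glutamyl amino acids in the turnover of glutathione. Its signals in experiments 1, 2 and 3 were 5.57, 7.49 and 6.24 in wild type control and 7.64, 8.45 and 6.93 in wild type IC. It was higher on IC in every experiment, although the ranges of the groups overlapped. The mean difference was 1.24 (standard error 0.26, n = 3 experiments), or 2.36-fold, with a limma adjusted p of 0.292. *Gss* encodes glutathione synthetase, which completes the tripeptide. Its signals were 6.16, 7.14 and 6.17 on the control surface and 7.95, 8.26 and 6.28 on IC. On average it differed by 1.01 (standard error 0.27), by 1.79 and 1.13 in experiments 1 and 2 but by 0.10 in experiment 3 (adjusted p = 0.404).

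Upstream of *Gss*, *Gclc* and *Gclm* encode the catalytic and the modifier subunit of glutamate-cysteine ligase, the rate-limiting enzyme of glutathione synthesis. *Gclc* had differences of 1.83, 0.82 and −0.36, and *Gclm* of 1.31, 0.23 and −0.37. *Slc7a11*, the light chain of the transporter that imports cystine, had differences of 1.77, 0.42 and −0.13. For *Slc3a2*, its heavy chain, they were 0.45, 0.58 and −0.15. *Abcc1*, which exports glutathione conjugates, had differences of 2.60, 0.64 and −0.41, or 6.08-fold in experiment 1 and 0.752-fold in experiment 3. These 5 genes thus shared an order in which experiment 3 alone lay below 0. *Gsr*, by contrast, encodes the NADPH-dependent reductase that recycles oxidized glutathione, and it was lower on IC in all 3 experiments, with a mean difference of −0.12 (standard error 0.10, adjusted p = 0.712). Its signals were 12.58, 12.53 and 12.25 in wild type control and 12.54, 12.45 and 12.01 in wild type IC. In experiments 1 and 2 *Gclc*, *Gclm* and *Gss* were thus higher on IC, while *Gsr* differed little.

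The thioredoxin and peroxide branch had a median difference of 0.90 (1.89, 0.66 and −0.17). *Srxn1* encodes sulfiredoxin, which repairs overoxidized peroxiredoxins. Its signals were 6.47, 8.34 and 7.81 in wild type control and 9.30, 9.34 and 7.59 in wild type IC. The difference was 7.15-fold in experiment 1 and 2.00-fold in experiment 2, while the order was the opposite in experiment 3 (0.862-fold). Its mean difference was 1.21 (standard error 0.43, adjusted p = 0.454). *Txnrd1*, the cytosolic thioredoxin reductase, had differences of 2.34, 0.66 and −0.29. *Prdx1*, a peroxiredoxin, had signals of 8.13, 9.40 and 8.63 on the control surface and 10.01, 10.25 and 8.59 on IC, with a mean difference of 0.90 (standard error 0.35, adjusted p = 0.484). *Txn1*, which encodes thioredoxin itself, stayed between 12.75 and 12.97 on all 12 arrays, whereas the range over the arrays was 2.89 for its reductase *Txnrd1* and 2.49 for *Prdx1*. The *Txn1* signal lay within about 1 log2 unit of the highest signal on the arrays. Catalase, encoded by *Cat*, had differences of 0.52, 0.30 and −0.17.

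The NADPH branch had a median difference of −0.04. *Pgd*, the dehydrogenase of the pentose phosphate pathway that yields NADPH, had differences of 0.05, −0.06 and −0.67. Of the non-oxidative steps of this pathway, *Taldo1* (transaldolase) had a mean difference of 0.04 and *Tkt* (transketolase) of −0.12. *Me1*, the cytosolic malic enzyme, had signals of 4.59, 4.92 and 4.06 on the control surface and 5.07, 5.01 and 4.40 on IC. It was higher on IC in every experiment, with a mean difference of 0.30 (standard error 0.11, adjusted p = 0.440), but its signals lay below the array median throughout.

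The iron and haem branch had a median difference of 0.30. *Blvrb* encodes biliverdin reductase B. Its signals were 7.78, 9.17 and 7.88 in wild type control and 8.58, 9.66 and 8.46 in wild type IC. It was higher on IC in each experiment, by 0.79, 0.49 and 0.58, although the groups overlapped. On average it differed by 0.62 (standard error 0.21, adjusted p = 0.438). *Hmox1*, the inducible haem oxygenase, had differences of 1.36, 0.59 and −0.38. The ferritin chains *Ftl1* and *Fth1*, which store iron, had mean differences of 0.02 and 0.09.

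Of the quinone and carbonyl reductases, *Nqo1*, a quinone reductase widely used as a marker of NRF2 activity, had the widest range of the 28 genes over the 12 arrays, 4.17. Its signals were 5.95, 8.81 and 5.82 in wild type control and 9.06, 9.53 and 5.44 in wild type IC. In experiments 1, 2 and 3 this was 8.64-fold, 1.65-fold and 0.767-fold, with a mean log2 difference of 1.15 (standard error 0.54, adjusted p = 0.527). *Cbr3*, a carbonyl reductase, had a mean difference of 0.22.

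The regulators had a median difference of 0.08. *Nfe2l2* had differences of 0.48, 0.05 and −0.30. *Keap1* had signals of 6.70, 7.50 and 6.31 on the control surface and 7.07, 7.99 and 6.25 on IC, with a mean difference of 0.27 (standard error 0.15, adjusted p = 0.580). *Mafg*, a small MAF partner of NRF2, had a mean difference of −0.09. *Sqstm1*, which encodes p62, a protein that binds KEAP1, had a mean difference of 0.19, and *Osgin1*, an oxidative stress-induced growth inhibitor, of −0.04. The mean difference of *Nfe2l2* mRNA was thus 0.08 (95% confidence interval −0.26 to 0.42), and its protein was not measured.

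**Figure D2:**
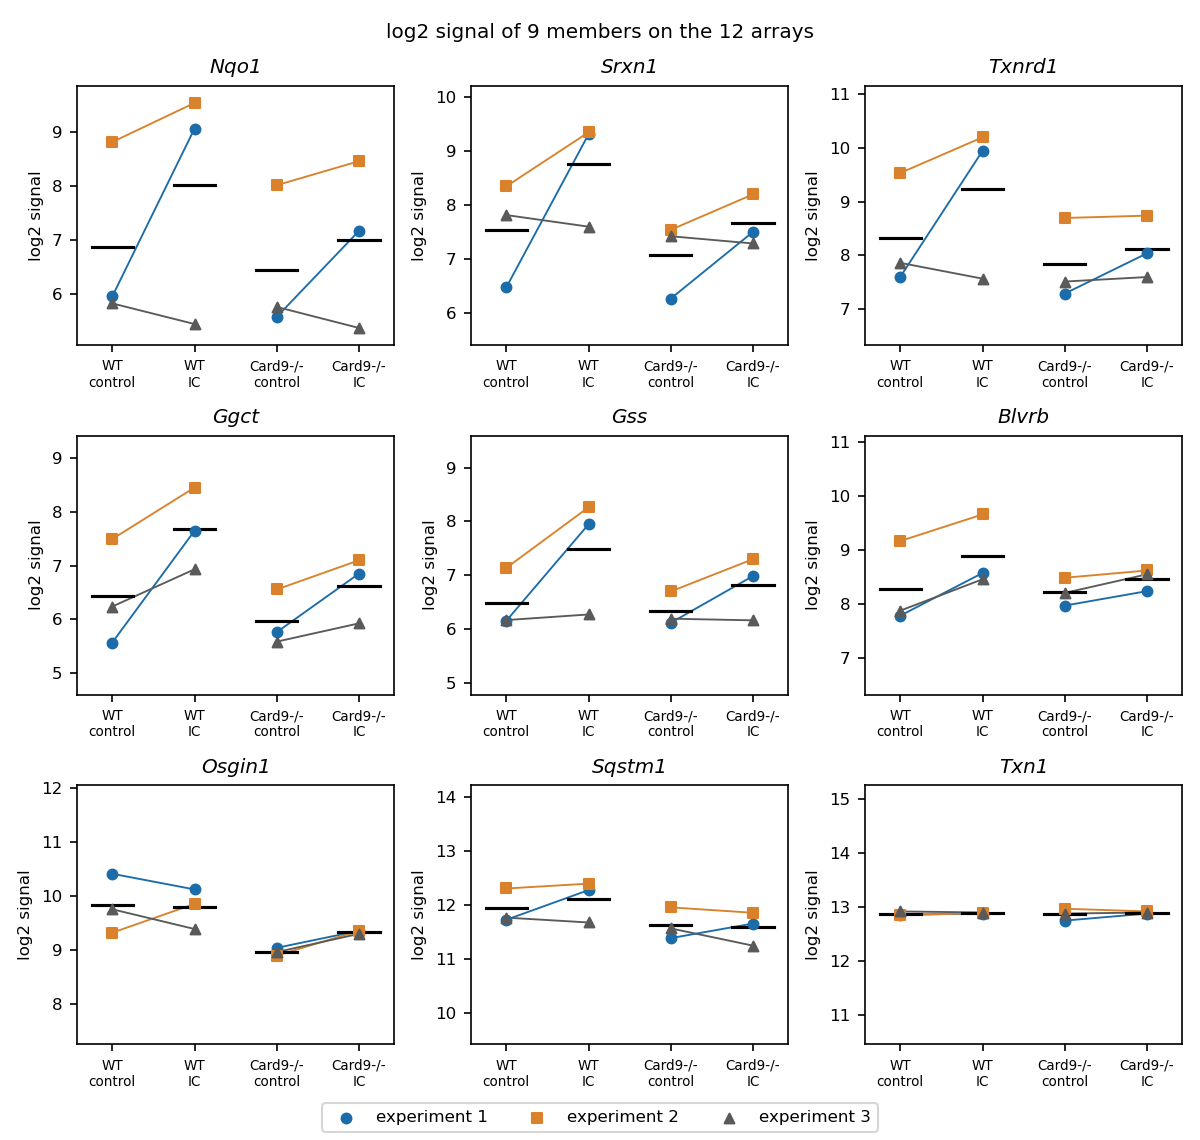
log2 signal (vertical axis, each panel spanning the same number of log2 units) of 9 of the genes in the 4 groups, with 1 point per experiment, lines from control to IC for each genotype and experiment, and black bars for group means. Nqo1 starts at 8.81 in wild type control of experiment 2 and near 5.9 in the other experiments; Txn1 is flat.

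The control arrays themselves differed between experiments. In wild type control, 11 of the 28 genes were more than 1 log2 unit higher in experiment 2 than in experiment 1 (3.02% of all clusters), with a median difference of 0.56 against 0.18 for all clusters. *Nqo1* was 8.81 in experiment 2 and 5.95 in experiment 1. In experiment 2 the smaller response thus started from higher control signals. In experiment 3 no difference between IC and control above 1 was seen. The median difference of its control signals from those of experiment 1 was 0.02 for the 28 genes and −0.42 for all clusters. Of the 28 genes, 15 lay higher than in experiment 1 (22.1% of all clusters). The control signals of *Nqo1* (5.82) and *Abcc1* (7.97) lay near those of experiment 1 (5.95 and 8.18). Those of *Srxn1* (7.81 against 6.47) and *Slc7a11* (11.24 against 10.25) were higher. How the response depends on the control signal was not tested. Wild type IC was the highest of the 4 arrays for 21 of the 28 genes in experiment 1 and for 22 in experiment 2 (32.6% and 31.3% of all clusters), but for 7 in experiment 3 (30.6%), where wild type control was the highest for 14 (22.6%).

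Among the marker lists, the median difference between IC and control in wild-type cells was −0.16 for neutrophils and −0.03 for monocytes and macrophages (11 of 12 measured). It was 0.07 for erythroid cells (9 of 15 measured). For B cells it was 0.03 (−0.22, 0.01 and 0.33 in experiments 1, 2 and 3). For T and NK cells (8 of 10 measured) it was 0.16 (−0.03, 0.04 and 0.34). For eosinophils, basophils and mast cells (10 of 12 measured) it was −0.15, and 8 of the 10 were lower in all 3 experiments (12.3% of all clusters). The mean signal of the monocyte and macrophage list was 6.09, 6.40 and 5.97 in wild type control and 6.31, 6.41 and 5.98 in wild type IC. This mean does not show the course of single markers such as *Adgre1* and *Csf1r*, which mark macrophages and monocytes. *Adgre1* signals were 8.63, 11.22 and 8.67 in wild type control and 10.50, 11.33 and 8.20 in wild type IC, that is, differences of 1.87, 0.11 and −0.47. For *Csf1r* they were 8.80, 10.64 and 8.65 on the control surface and 9.50, 10.26 and 7.97 on IC. Like *Nqo1* and *Abcc1*, *Adgre1* was thus high in the control of experiment 2, higher on IC in experiment 1 and lower on IC in experiment 3. In *Card9*-/- cells its differences were −0.03, −0.57 and −0.39. The list did not move as one, as 5 of its 11 markers had a mean difference above 0 in wild-type cells and 6 below. *Ly86*, for instance, had signals of 8.41, 7.74 and 8.39 in wild type control and 8.03, 7.54 and 8.65 in wild type IC. These single monocyte and macrophage markers were chosen after their values were seen. The part of such cells, and of the other cells of these lists, in the response was not tested.

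**Figure D3:**
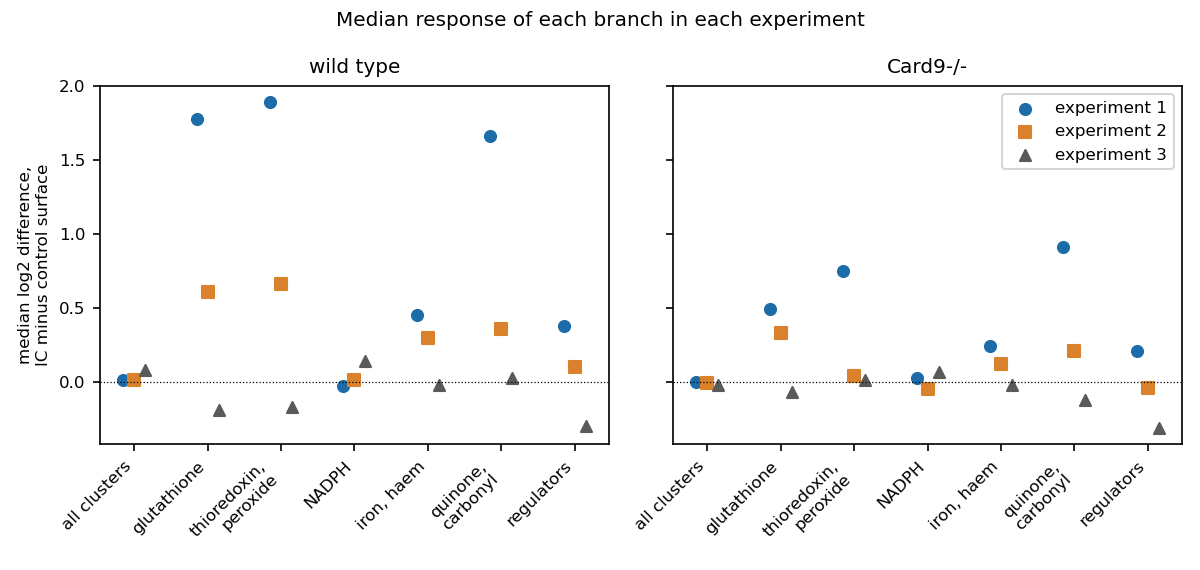
Median difference in log2 signal between the IC and the control surface (vertical axis) for each branch and for all clusters tested, in wild-type (left) and Card9-/- cells (right), with 1 symbol per experiment. The glutathione, thioredoxin and quinone branches stand highest in experiment 1, the NADPH branch stays near 0, and no branch exceeds 0.2 in experiment 3.

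The promoters of these genes were then searched for the antioxidant response element. RefSeq promoter windows (GRCm38.p6, from 250 bases before to 50 bases after the transcript start) were at hand for 24 of the 28 genes and not for *Gclc*, *Gsr*, *Abcc1* and *Hmox1*. The core TGACNNNGC was found on either strand in 9 of the 24 (37.5%), against 14% of 27025 genes with a window, and before the start in 6 (25%), against 11.5%. The form TGACTCAGC, which also holds the AP-1 motif TGANTCA, was found in 2 (*Prdx1* and *Me1*, 8.3%), against 0.503% of all genes. TGANTCA itself was found in 4 (16.7%), against 8.97%. Many antioxidant response elements lie outside so short a window, and a match is a run of letters and not a measured site. The window of *Nqo1* held no match. The matches of the 5 genes below are shown because 4 of them belong to the 7 with an unadjusted p under 0.05 in wild-type cells, with *Gclm* as the partner of *Gclc*. Not shown are *Srxn1*, also 1 of the 7, whose match lies 28 bases after the start, and a second match of *Ggct*, 5 bases after it. The matches of *Pgd* (3 bases after the start), *Nfe2l2* (240 bases before it) and *Mafg* (222 bases before it) are not shown either. These genes were not among the 7, so that a match did not go with the response in every gene. Each is written 5′ to 3′ in the direction of the gene with the matched letters in capitals.
Ggct, chr6:54993003-54993071, strand -, 174 bases before the start: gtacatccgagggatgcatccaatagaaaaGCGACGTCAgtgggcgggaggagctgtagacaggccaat
Txnrd1, chr10:82859084-82859152, strand +, 92 bases before the start: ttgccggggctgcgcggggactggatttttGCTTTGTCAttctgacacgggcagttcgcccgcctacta
Prdx1, chr4:116685436-116685504, strand +, 133 bases before the start: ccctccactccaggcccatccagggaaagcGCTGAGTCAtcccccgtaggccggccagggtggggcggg
Gclm, chr3:122245393-122245461, strand +, 134 bases before the start: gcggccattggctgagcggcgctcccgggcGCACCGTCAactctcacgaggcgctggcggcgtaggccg
Me1, chr9:86695912-86695950, strand -, from 6 bases before the start and across it: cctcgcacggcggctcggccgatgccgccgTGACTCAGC
The matches of *Ggct*, *Txnrd1*, *Prdx1* and *Gclm* read the core on the opposite strand and that of *Me1* on the strand of the gene. Those of *Prdx1* and *Me1* overlap the AP-1 motif. That of *Txnrd1* lies in 1 of its 3 windows and that of *Me1* in 1 of 2.

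Next, the response of *Card9*-/- cells was examined. The mean was above 0 for 21 of the 28 genes (46.4% of all clusters), with a median of 0.10 (0.27, 0.08 and −0.04 in experiments 1, 2 and 3), against −0.01 over all clusters. None of the 28 passed the adjusted threshold in limma (0% of all clusters), and at an unadjusted p under 0.05, 1 was higher (*Ggct*, 1.87% of all clusters) and 0 were lower (1.15%, or 3.01% in either direction). Without experiment 3 there were 7 higher (1.78%), and without experiment 2 there were 0. The median was 0.05 without experiment 1 and 0.16 without experiment 3. In all 3 experiments 9 of the 28 (32.1%) were higher, against 11.5% of all clusters. They were *Ggct*, *Gclc*, *Txnrd1*, *Prdx1*, *Me1*, *Blvrb*, *Fth1*, *Keap1* and *Osgin1*.

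*Ggct* signals were 5.77, 6.56 and 5.59 in *Card9*-/- control and 6.85, 7.10 and 5.93 in *Card9*-/- IC. It was higher on IC in each experiment, with a mean difference of 0.66 (standard error 0.26, or 1.58-fold, limma adjusted p = 1). *Prdx1* had signals of 7.76, 8.84 and 8.91 on the control surface and 8.54, 9.34 and 9.07 on IC, with a mean difference of 0.48 (standard error 0.35). *Blvrb*, with 7.97, 8.49 and 8.21 on the control surface and 8.24, 8.62 and 8.55 on IC, had a mean difference of 0.25. *Osgin1* was the gene whose groups did not overlap (0.646% of all clusters), with 9.04, 8.89 and 8.96 on the control surface and 9.35, 9.35 and 9.30 on IC. Its mean difference was 0.37 (standard error 0.19, adjusted p = 1).

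*Hmox1* and *Slc7a11* had responses in *Card9*-/- cells of about the size seen in wild-type cells. *Hmox1* had differences of 1.55, 0.46 and −0.14, with a mean of 0.62 against 0.52 in wild-type cells. For *Slc7a11* they were 1.61, 0.32 and −0.05, with a mean of 0.63 against 0.69. *Abcc1* was unlike them, with 0.50, −0.18 and −0.21 and a mean of 0.04 against 0.94 in wild-type cells. In experiment 1 the fold was 3.02 for *Nqo1*, 2.36 for *Srxn1* and 1.68 for *Txnrd1* in *Card9*-/- cells, against 8.64, 7.15 and 5.05 in wild-type cells.

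The difference between the responses of the genotypes was tested as an interaction. It was below 0, that is, smaller in *Card9*-/- cells, for 21 of the 28 genes (56.4% of all clusters), with a median of −0.17 (−0.31, −0.13 and 0.02). In limma 0 of the 28 passed the adjusted threshold (0% of all clusters), and 0 had an unadjusted p under 0.05 in either direction (1.03% of all clusters were higher and 2.65% lower). Without experiment 3 the latter became 5, all lower (2.69% of all clusters). The median was −0.08 without experiment 1 and −0.10 after median centring. The response was smaller in *Card9*-/- cells in all 3 experiments for 7 of the 28 (25%, against 16.6% of all clusters). Among them *Ggct* differed by −0.58 (95% confidence interval −1.40 to 0.23), *Gss* by −0.53 (−1.38 to 0.32), *Blvrb* by −0.37 (−1.03 to 0.29) and *Me1* by −0.26 (−0.59 to 0.07), each with an adjusted p of 0.999. For *Slc7a11* the interval ran from −1.13 to 1.01 and for *Hmox1* from −1.0 to 1.20, so that 3 experiments did not bound a difference of 1 log2 unit for either.

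On IC, *Card9*-/- cells were compared with wild-type cells directly. The mean was lower in *Card9*-/- cells for 25 of the 28 genes (53.6% of all clusters), with a median of −0.26 (−0.55, −0.38 and −0.07) against −0.01 over all clusters. In limma 0 of the 28 passed the adjusted threshold, against 47 of all clusters (0.162%, of which 0.0449% higher and 0.117% lower). At an unadjusted p under 0.05, 8 of the 28 (28.6%) were lower, against 5.1% of all clusters, and 0 were higher (4.03%, or 9.13% in either direction). In all 3 experiments 10 (35.7%) were lower, against 15.4%, and 0 were higher (13.5%). The 8 became 4 without experiment 1, 3 without experiment 2 and 15 without experiment 3 (3.12%, 3.48% and 7.44% of all clusters), and the median was −0.47 without experiment 3.

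*Ggct* was lower in *Card9*-/- cells by 0.79, 1.35 and 1.00 log2 units in experiments 1, 2 and 3. The mean difference was −1.05 (standard error 0.26), or 2.07-fold lower, with an adjusted p of 0.182. When only the 6 IC arrays were fitted the adjusted p was 0.0320, and without experiment 1 it was 0.0458 with a difference of −1.17, so that *Ggct* alone of the 28 passed under some of the settings tried. *Srxn1* signals on IC were 9.30, 9.34 and 7.59 in wild-type and 7.50, 8.19 and 7.28 in *Card9*-/- cells, with a mean difference of −1.09 (standard error 0.43, adjusted p = 0.477). It was lower in each experiment, though by 0.31 only in experiment 3. *Abcc1* (−2.26, −1.40 and 0.06) and *Txnrd1* (−1.90, −1.45 and 0.03) were lower in experiments 1 and 2 and level in experiment 3. *Gss* had a mean difference of −0.68 and *Nqo1* of −1.02 (95% confidence interval −2.20 to 0.16).

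*Sqstm1* and *Nfe2l2*, of the regulators, had smaller differences of the same sign in every experiment. *Sqstm1* signals on IC were 12.27, 12.39 and 11.67 in wild-type and 11.65, 11.85 and 11.24 in *Card9*-/- cells, so that it was lower by 0.62, 0.55 and 0.43. The mean difference was −0.53 (standard error 0.14, limma adjusted p = 0.202). *Nfe2l2* had signals of 11.86, 11.84 and 10.98 in wild-type and 11.08, 11.48 and 10.58 in *Card9*-/- cells, with a mean difference of −0.52 (standard error 0.15, adjusted p = 0.274). *Osgin1* differed by −0.45, and its groups did not overlap (1.03% of all clusters were lower in this way and 0.84% higher), as was also the case for the ferritin chains *Ftl1* (−0.13) and *Fth1* (−0.14), whose differences were small. In the NADPH branch *Pgd* differed by 0.00 and *Tkt* by 0.11.

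**Figure D4:**
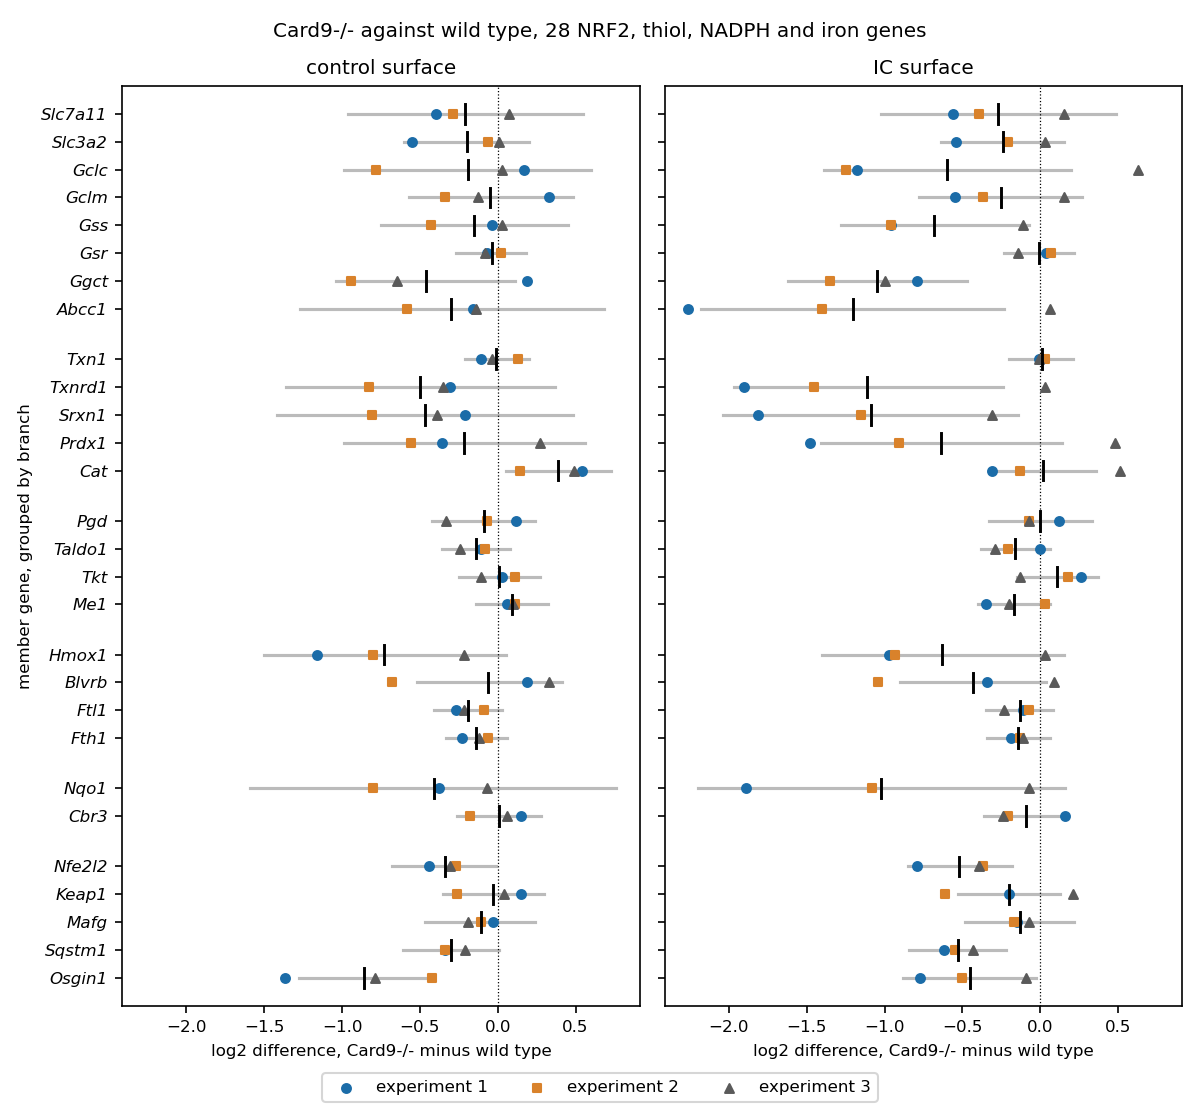
Difference in log2 signal between Card9-/- and wild-type cells (horizontal axis) for the 28 genes (rows, grouped by branch) on the control (left) and the IC surface (right). Symbols are the 3 experiments, black bars their mean and grey lines the 95% confidence interval of the limma fit; Ggct, Osgin1, Sqstm1 and Nfe2l2 lie left of 0 in all 3 experiments on IC, and Osgin1, Sqstm1 and Nfe2l2 do so on the control surface as well.

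Finally, the genotypes were compared on the control surface. The mean was lower in *Card9*-/- cells for 24 of the 28 genes (42.6% of all clusters) and higher for 4 (57.4%), with a median of −0.17 (−0.11, −0.28 and −0.11) against 0.03 over all clusters. In limma 0 of the 28 passed the adjusted threshold, against 0.038% of all clusters. At an unadjusted p under 0.05, 2 were lower (*Osgin1* and *Nfe2l2*, 2.22% of all clusters) and 1 was higher (*Cat*, 2.43%), 3 in all against 4.64%. After centring each array on its median, 4 were lower (*Osgin1*, *Nfe2l2*, *Sqstm1* and *Ftl1*, 3.92%) and 0 higher (1.04%). In all 3 experiments 12 (42.9%) were lower, against 12.8% of all clusters, and 2 were higher (18%).

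*Osgin1* signals on the control surface were 10.41, 9.32 and 9.75 in wild-type and 9.04, 8.89 and 8.96 in *Card9*-/- cells. The groups did not overlap (0.795% of all clusters were lower in this way). The mean difference was −0.86 (standard error 0.19), or 1.82-fold lower, with a limma adjusted p of 0.470. *Cat* had signals of 8.15, 8.43 and 8.39 in wild-type and 8.69, 8.58 and 8.87 in *Card9*-/- cells, again without overlap (0.629% of all clusters were higher in this way). Its mean difference was 0.39 (standard error 0.16, adjusted p = 0.954), and on IC it was 0.02. The groups of *Ftl1* did not overlap either, with 12.55, 12.46 and 12.58 in wild-type and 12.29, 12.37 and 12.36 in *Card9*-/- cells. *Nfe2l2*, with 11.38, 11.79 and 11.28 in wild-type and 10.94, 11.52 and 10.96 in *Card9*-/- cells, had a mean difference of −0.34 (standard error 0.15, adjusted p = 0.954). *Sqstm1*, with 11.72, 12.30 and 11.76 against 11.38, 11.95 and 11.56, had a mean difference of −0.30, and *Hmox1*, with differences of −1.16, −0.80 and −0.22, of −0.73. *Osgin1*, *Nfe2l2*, *Sqstm1* and *Hmox1* thus lay lower in *Card9*-/- cells on both surfaces on average, as *Hmox1* also differed by −0.63 on IC. This was not particular to them, as the mean was lower for 24 of the 28 genes on the control surface and for 25 on IC.

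Markers of other cells also differed between the genotypes. The median difference of the 10 B cell markers between *Card9*-/- and wild-type cells on IC was 0.67 (1.31, 0.05 and 0.63 in experiments 1, 2 and 3), and on the control surface 0.49 (0.98, −0.03 and 0.38). At an unadjusted p under 0.05, 5 of the 10 were higher on IC (4.03% of all clusters) and 1 on the control surface (2.43%). For eosinophils, basophils and mast cells (10 of 12 markers measured) it was 0.42 on IC (−0.08, 0.19 and 0.85 in experiments 1, 2 and 3). On the control surface it was 0.32 (−0.19, 0.2 and 0.84). For the erythroid list it was −0.11 on IC and −0.04 on the control surface, where single markers ran from −0.99 (*Alas2*) to 0.14. For the neutrophil list it was 0.09 and −0.07. For monocytes and macrophages it was −0.05 and −0.15, and on IC 3 of the 11 were lower (*Csf1r*, *Adgre1* and *Ms4a7*, 5.1% of all clusters) and 1 was higher (*Ccr2*, 4.03%) at an unadjusted p under 0.05. On IC *Adgre1* differed between the genotypes by −2.0, −0.94 and 0.17 in experiments 1, 2 and 3, beside −2.26, −1.40 and 0.06 for *Abcc1* and −1.90, −1.45 and 0.03 for *Txnrd1*. *Csf1r* differed by −1.06, −0.86 and −0.19. On IC the mean signal of the B cell list ranged from 5.39 to 7.93 in wild-type and from 5.44 to 8.56 in *Card9*-/- cells. In the same experiments on IC, where the B cell markers differed by 1.31, 0.05 and 0.63, the median of the 28 genes was −0.55, −0.38 and −0.07. The part of other cells in the genotype differences was not tested.

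The 28 genes differed from each other in how much they varied at all. The range over the 12 arrays exceeded 2 log2 units for 11 of them (39.3%), against 7.2% of all clusters, and was under 0.5 for 5 (17.9%), against 4.13%. The latter were *Txn1* (0.23), *Ftl1* (0.33), *Tkt* (0.35), *Taldo1* (0.43) and *Fth1* (0.47), that is, thioredoxin, ferritin and the non-oxidative pentose phosphate enzymes. The share of the variation that lay between experiments had a median of 44.1%, against 82.4% for all clusters, while surface accounted for a median of 6.38% (1.24%) and genotype for 8.85% (1.16%). Surface accounted for the most in *Ggct* and *Slc7a11* (29.9% each), and genotype in *Ftl1* (58.3%) and *Osgin1* (54.1%). *Mafg* and *Gclm* varied mainly between experiments (93.1% and 91.1%). These shares describe 12 arrays and carry no test.

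**Figure D5:**
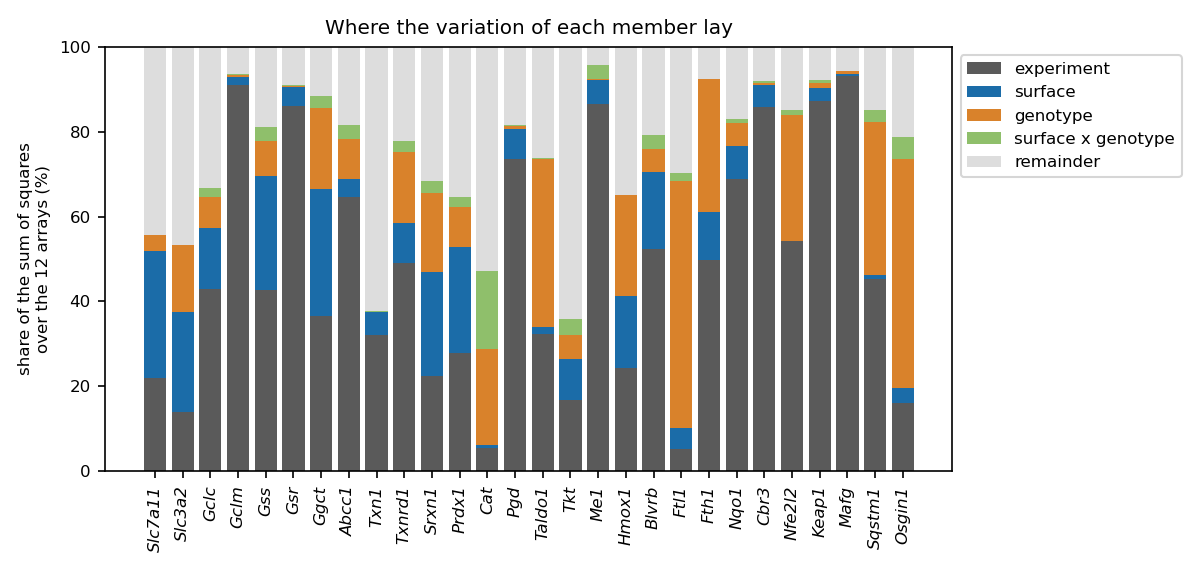
Share of the sum of squares over the 12 arrays (vertical axis, %) that lay between experiments, surfaces and genotypes, in their interaction, and in the remainder, for each of the 28 genes. Experiment takes the largest share in Mafg and Gclm, surface reaches 29.9% in Ggct and Slc7a11, and genotype 58.3% in Ftl1.

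A few genes were read by more than 1 cluster or may share probes with a near-identical copy. The second cluster of *Prdx1* had a wild-type IC difference of 0.85 and that of *Me1* of 0.26, close to 0.90 and 0.30 in the clusters used. The 4 further clusters that name *Ftl1* also name microRNAs and gave 0.02 to 0.04. Which copy of these genes each cluster reads was not tested.

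Outside the 30 genes, 103 further genes of glutathione, thioredoxin, NADPH, iron and quinone metabolism and of NRF2 regulation were measured. Between IC and control their median difference was −0.03 for wild type and −0.04 for *Card9*-/-. At an unadjusted p under 0.05, 5 were higher and 10 lower on IC in wild-type cells (5.18% and 4.41% of all clusters). The counts were 1 and 1 in *Card9*-/- cells (1.87% and 1.15%) and 7 and 12 between *Card9*-/- and wild-type cells on IC (4.03% and 5.1%). They were 2 and 3 between the genotypes on the control surface (2.43% and 2.22%), and 1 and 3 in the interaction (1.03% and 2.65%). The shift of the 28 genes in wild-type cells was thus not seen in the median of these further genes. Both lists were chosen with earlier results of these data known, so that this contrast is a description only.

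Of the 103, only *Idh1* passed the adjusted threshold, between the genotypes on IC. *Idh1* encodes the cytosolic isocitrate dehydrogenase, which yields NADPH. Its signals on IC were 7.39, 8.14 and 6.45 in wild-type and 8.77, 9.05 and 7.42 in *Card9*-/- cells. It was higher in *Card9*-/- cells by a mean of 1.09 (standard error 0.17, limma adjusted p = 0.0393), in 3 of 3 experiments. The adjusted p was above the threshold, at 0.0553 to 0.493, when any 1 experiment was left out, and it was 0.0743 after centring each array on its median. In wild-type cells *Idh1* differed by −0.85 between IC and control (adjusted p = 0.272), which was opposite in sign to *Me1*.

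*Maff*, which encodes another small MAF protein, had signals of 5.65, 6.49 and 6.52 in wild type control and 6.76, 8.27 and 7.41 in wild type IC, without overlap. Its mean difference was 1.26 (standard error 0.21, adjusted p = 0.207), against −0.09 for *Mafg*. In *Card9*-/- cells the response of *Maff* was 0.57, and on IC the genotypes differed by a mean of −1.06 (adjusted p = 0.0946). *Sod2*, the mitochondrial superoxide dismutase, had signals on IC of 11.45, 12.09 and 11.15 in wild-type and 8.46, 11.03 and 9.91 in *Card9*-/- cells, without overlap, with a mean difference of −1.76 (standard error 0.38, adjusted p = 0.119). Without experiment 1 this difference was −1.15 (adjusted p = 0.0458). Its responses differed by −1.35 (adjusted p = 0.999).

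Smaller differences were seen for the rest of the further genes with the lowest p values. *Flvcr1*, a haem exporter, had mean differences between IC and control of −0.35 (wild type) and −0.25 (*Card9*-/-), and *Rpe*, a pentose phosphate epimerase, of −0.32 and −0.22. On the control surface, *Rxra*, a nuclear receptor, differed between the genotypes by −0.69, *Mafk*, the remaining small MAF protein, by −0.54, and *Nqo2*, a quinone reductase related to *Nqo1*, by 0.65. *Nqo2* thus had the sign opposite to that of *Nqo1* (−0.41). The responses of *Slc11a2*, a transporter of ferrous iron, differed between the genotypes by −0.44 (adjusted p = 0.999).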

How the data were processed

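Neutrophil gene expression was measured on 12 Affymetrix mouse gene arrays, 3 per group. The authors isolated the cells from bone marrow on a Percoll gradient, prepared RNA with a kit for small samples and labelled it for the arrays. The authors deposited 1 log2 signal for each transcript cluster. How these were background-corrected, summarized and normalized is not stated in the labels or methods, so that compression of high signals cannot be judged. Of 35556 rows, 6617 whose identifiers lie below the annotated range were left out, and 28939 clusters were tested without a filter on signal. Gene symbols came from the platform annotation, in which 21789 clusters name 1 gene, 1621 several and 5529 none.

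One model over all 12 arrays was fitted with lmFit and eBayes of limma 3.58.1 in R 4.3.3, in which each experiment was a fixed block (6 residual degrees of freedom), because the labels give each experiment as a time point that holds all 4 groups and the study expresses its values relative to wild-type control within each experiment. Correlations of the deviations from the group means were 0.671 to 0.867 for the same experiment and −0.727 to 0.355 for different ones. Two-sided p values were adjusted over the 28939 clusters (Benjamini-Hochberg) and the threshold was 0.05. Values on every array are given for up to 4 members per comparison with the smallest p among those with 1 direction in all 3 experiments and for the member with the smallest p of each branch in wild-type cells. Of the further pathway genes, those past the threshold and up to 3 per comparison are named. The response of *Sod1*, the single monocyte and macrophage markers, and the members described only by their differences, were chosen after their values were seen. The members and lists were chosen with earlier results of these data known. In data simulated for the wild-type comparison over 28939 clusters, 83 of 100 differences of 1 log2 unit and 99 of 100 of 2 were recovered with 16 false calls. In those simulated for the genotypes on IC, 88 and 100 of 100 were recovered with 6 false calls, and in those for the interaction, 55 and 96 with 11. Each simulated difference was the same in all 3 experiments and was given to clusters drawn at random. The responses of the members differed in size and sign between experiments, so that these counts do not give the recovery for the members.

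Alternative settings dropped the block or made it random, normalized the arrays by quantiles or centred them on their medians, kept clusters above the median signal, used limma-trend, fitted the compared arrays alone, ran a factorial test without moderation, averaged all clusters of a gene, and left out each experiment. Promoters were searched and figures drawn with Python 3.11.15, pandas 2.3.3 and matplotlib 3.10.9.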

Additional observations from a re-analysis of the deposited data

Results flagged for a closer look

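*Sod1*, the cytosolic superoxide dismutase, had a higher signal on IC in each of the 3 wild-type experiments, with a mean log2 difference of 0.23, and a lower one in each of the 3 *Card9*-/- experiments, with −0.14. The opposite directions drew attention to it, and they were shared by 2.16% of all clusters. The limma test of the difference between the responses gave −0.37 (standard error 0.17, adjusted p = 0.999). Of the 28 genes and the 103 further genes, it was the only one with this pattern.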

How the results depend on the processing

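The count of members past the adjusted threshold was 0 in all 5 comparisons under the settings tried, except that *Ggct* gave a count of 1 between the genotypes on IC when only the IC arrays were fitted and without experiment 1. Without the replicate block, which pairs the arrays of an experiment, the count of members at an unadjusted p under 0.05 fell from 7 to 1 in wild-type cells, from 1 to 0 in *Card9*-/- cells, from 8 to 0 between the genotypes on IC and from 3 to 1 between them on the control surface, while the share of all clusters fell from 5.18% to 0.187% (higher, wild type), from 1.87% to 0.128% (higher, *Card9*-/-), from 5.1% to 0.418% (lower, IC) and from 2.22% to 0.166% (lower, control surface). When the block was random the count was 11 in wild-type cells (4.88% of all clusters higher). Between the genotypes on the control surface it was then 5, with 1 higher and 4 lower (2.18% and 2.17% of all clusters). With limma-trend the count on the control surface was also 5, with 1 higher and 4 lower (2.58% and 2.08%). Fitting only the arrays compared gave 7 in *Card9*-/- cells (2.39% higher) and 10 for the genotypes on the control surface (3.6% higher and 3.97% lower); this setting cannot be applied to the interaction. The factorial test without moderation gave 0 for the wild type response and 0 for the *Card9*-/- response (0.418% and 0.159% of all clusters higher). Between the genotypes it gave 0 on IC (0.536% lower) but 3 on the control surface, as many as in the main fit. These were *Cat*, which was higher (0.169% of all clusters), and *Ftl1* and *Osgin1*, which were lower (0.28%). When an experiment was left out the counts ranged from 1 to 16 for wild type, from 0 to 7 for *Card9*-/-, from 3 to 15 between the genotypes on IC, from 2 to 5 on the control surface and from 0 to 5 in the interaction, with the highest count without experiment 3 each time. The cause was not tested. On the control surface the 5 without experiment 3 were 1 higher and 4 lower (2.52% and 2.96% of all clusters). The 2 without experiment 1 were lower (1.36%). Of the 2 without experiment 2, 1 was higher and 1 lower (1.57% and 1.83%). Over 12 settings, 436 of 446 values of named genes kept their side of the threshold and 0 reversed direction; 4 passed where they had not before (*Ggct* under both settings above, *Sod2* without experiment 1 and *Maff* with a random block, adjusted p = 0.0376), and 6, all of them *Idh1*, no longer did. The count of all clusters past the threshold between the genotypes on IC, 47 as reported, was 0 without the block, 105 with a random block, 22 after median centring, 173 with only the IC arrays, 0 in the factorial test, and 3 to 116 when an experiment was left out. The medians of the 28 genes kept their sign under all settings run. With TGACTCAGC in place of TGACNNNGC the share of promoters with a match was 8.3%. Signals below the array median, as for *Me1* and *Cbr3*, may limit the differences that could be seen. Whether signals near the top of the scale, as for *Txn1* and *Fth1*, do so as well cannot be judged.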
